A study of Mus musculus with 6 samples.

Results

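The members are the protein subunits of oxidative phosphorylation, taken from the gene table of the series by the form of their symbols: Nduf genes of complex I, *Sdha* to *Sdhd* of complex II, Uqcr genes and *Cyc1* of complex III, Cox4 to Cox8 genes of complex IV, Atp5 genes of ATP synthase (complex V), and the protein genes of mitochondrial DNA (mtDNA). Of 36144 gene symbols, 105 had such a name. Left out were 7 pseudogenes, the tissue isoforms *Cox7a1* and *Cox8b*, and 3 symbols below a mean of 1 TPM (a level per transcript length, on a scale with the same sum in each library), which left 93 members. The lowest member was *Cox4i2*, with a mean of 5.47 TPM over the 6 libraries, and the highest symbol below the minimum was *Cox6c2*, with 0.759 TPM. Of the members, 80 are encoded in the nucleus (35 in complex I, 4 in II, 9 in III, 15 in IV and 17 in V) and 13 in mtDNA. The symbols decide membership, so *Atp5s*, a coupling factor outside the mature enzyme, is among them, and *Ndufa4* is described here with complex IV, to which it is now assigned.

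RNA was sequenced from the whole inguinal white adipose tissue (iWAT) of 6 female mice aged 10 weeks, fed chow at will, on the C57BL6/J background. Every mouse was homozygous for floxed *Cebpa*, which encodes C/EBPα, a transcription factor of fat cell differentiation. The 3 Cebpa_ASKO mice also carried AdipoQ-Cre, whose promoter is active late in adipocyte differentiation, so *Cebpa* is deleted in adiponectin-expressing cells and kept in the other cells of the depot. The 3 Cebpa_fl/fl mice were AdipoQ-Cre-negative littermates, both fat pads of a mouse were pooled, and lymph nodes were taken out. The comparison asks how the subunits of energy production stood in iWAT without adipocyte C/EBPα.

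Complexes I and II feed electrons from NADH and succinate to ubiquinone, complex III passes them to cytochrome c, and complex IV hands them to oxygen. Proton pumping by complexes I, III and IV drives ATP synthase, whose membrane ring turns a central stalk inside a catalytic head. All of these enzymes except complex II mix nuclear and mtDNA subunits. White adipocytes hold few mitochondria and brown or beige adipocytes many, and the uncoupling protein *Ucp1* lets the latter turn the proton gradient into heat.

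Libraries held 46237121, 46601320 and 49477671 estimated counts in Cebpa_fl/fl 1, 2 and 3 and 33141769, 37957065 and 42243013 in Cebpa_ASKO 1, 2 and 3. Depth was thus lower in Cebpa_ASKO without overlap. *Cebpa* was at 204, 238 and 243 TPM in Cebpa_fl/fl 1, 2 and 3 and at 17.3, 23.9 and 20.1 TPM in Cebpa_ASKO 1, 2 and 3, a log2 fold change of -3.55 (standard error, SE, 0.131, adjusted p = 0.000163). Calls are by edgeR at an adjusted p under 0.05 unless DESeq2 is named. Of 20 adipocyte markers all were detected and 11 were called lower (15 with DESeq2), with summed levels of 45523 to 60954 TPM in Cebpa_fl/fl and 15833 to 16868 TPM in Cebpa_ASKO. The most abundant of them were the adipokine *Cfd* (25587 ± 5348 against 2843 ± 1315 TPM), the fatty acid carrier *Fabp4* (13271 ± 2131 against 7612 ± 832 TPM, not called) and *Adipoq* (2795 ± 620 against 381 ± 20.5 TPM; SD, n = 3 each). Of 30 skeletal muscle genes 21 were called higher (25 called with DESeq2), and their summed level was 808 to 1272 TPM in Cebpa_fl/fl and 2600 to 6909 TPM in Cebpa_ASKO. The muscle genes with the highest levels were *Ckm*, *Acta1* and *Myl1*, at 513 ± 295, 502 ± 297 and 398 ± 196 TPM in Cebpa_ASKO against 90.9 ± 28.5, 98.8 ± 21.1 and 146 ± 13.8 TPM. Mammary epithelial genes summed to 878 to 1875 TPM against 2368 to 2682 TPM, led by *Krt19*, *Krt18* and *Krt8* (log2 fold changes 0.96, 0.92 and 1.10, not called by edgeR). Of 16 tested, 14 lay above 0, with a median log2 fold change of 0.69, and edgeR called 1, *Esr1*, lower, with 11 at an unadjusted p under 0.05 and 7 called by DESeq2. By edgeR 0 of 13 macrophage genes were called (1 at an unadjusted p under 0.05, 0 with DESeq2), with a median of 0.15. Of 12 lymphocyte genes edgeR called 0 (8 at an unadjusted p under 0.05, 3 with DESeq2), all 12 lay below 0 with a median of -2.79, and their sum was 497 TPM in Cebpa_fl/fl 1 and 72.4 to 124 TPM in the other libraries. Of 12 endothelial genes 11 lay below 0, edgeR called *Emcn* and *Cldn5* lower, and DESeq2 called 4. The macrophage, lymphocyte and endothelial sums overlapped between genotypes. In whole tissue, fewer cells of a type and less RNA per cell cannot be told apart.

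Subunit genes were among the most abundant transcripts of iWAT. Together the 93 members took 24.3% to 35.4% of all TPM in a library and 12.3% to 19.3% of all counts. The 13 mtDNA genes summed to 296964, 213780 and 282635 TPM in Cebpa_fl/fl 1, 2 and 3 and to 313545, 293290 and 275944 TPM in Cebpa_ASKO 1, 2 and 3. The 80 nuclear members summed to 37196, 28926 and 35823 TPM and to 40909, 37316 and 35365 TPM in the same order. The library Cebpa_fl/fl 2 was the lowest and Cebpa_ASKO 1 the highest in both sums, and the genotypes overlapped. The ratio of the mtDNA sum to the nuclear sum stayed between 7.39 and 7.98 in the 6 libraries, with means of 7.75 ± 0.319 in Cebpa_fl/fl and 7.78 ± 0.1004 in Cebpa_ASKO (SD, n = 3 each). Among nuclear members the level per length ran from *Cox4i2* to *Atp5b*, which encodes the catalytic β subunit of ATP synthase, at a mean of 1533 TPM, with a median of 343 TPM over the 80.

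Most subunit genes did not pass the test between genotypes. Only the ATP synthase ring gene *Atp5g3* and the complex IV isoform gene *Cox4i2* passed an adjusted p of 0.05 in edgeR's quasi-likelihood test, and both fell. That is 2 of 93 members, or 2.15%, where 5.23% of the 16069 genes tested were called (1.39% higher and 3.84% lower). At an unadjusted p under 0.05 there were 6 members, or 6.45%, against 19.8% of all genes. CPM, counts scaled to library size with TMM factors, did not overlap between genotypes for 6 members, against 26.1% of all genes. Those were *Ndufa6*, *Ndufa10* and *Cox5a*, all higher (12.9% of all genes), and *Atp5g3*, *Atp5j* and *Cox4i2*, all lower (13.2% of all genes). On the TPM scale 23 members did not overlap, against 23.5% of all genes tested. DESeq2 called 4 members, adding *Atp5j*, lower, and *Cox6a2*, higher, where it called 10.7% of all genes.

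The fold changes of the rest were small and mostly on the higher side. The median log2 fold change was 0.11 over all members, 0.10 over the nuclear and 0.17 over the mtDNA members, beside 0.02 over all genes tested. Of the 93 fitted values 68 lay above 0 and 25 below. For 87 members the 95% confidence interval lay between a halving and a doubling, which is 93.5% against 68.2% of all genes tested. The median standard error was 0.191 on the log2 scale for the members and 0.167 for all genes.

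**Figure D1:**
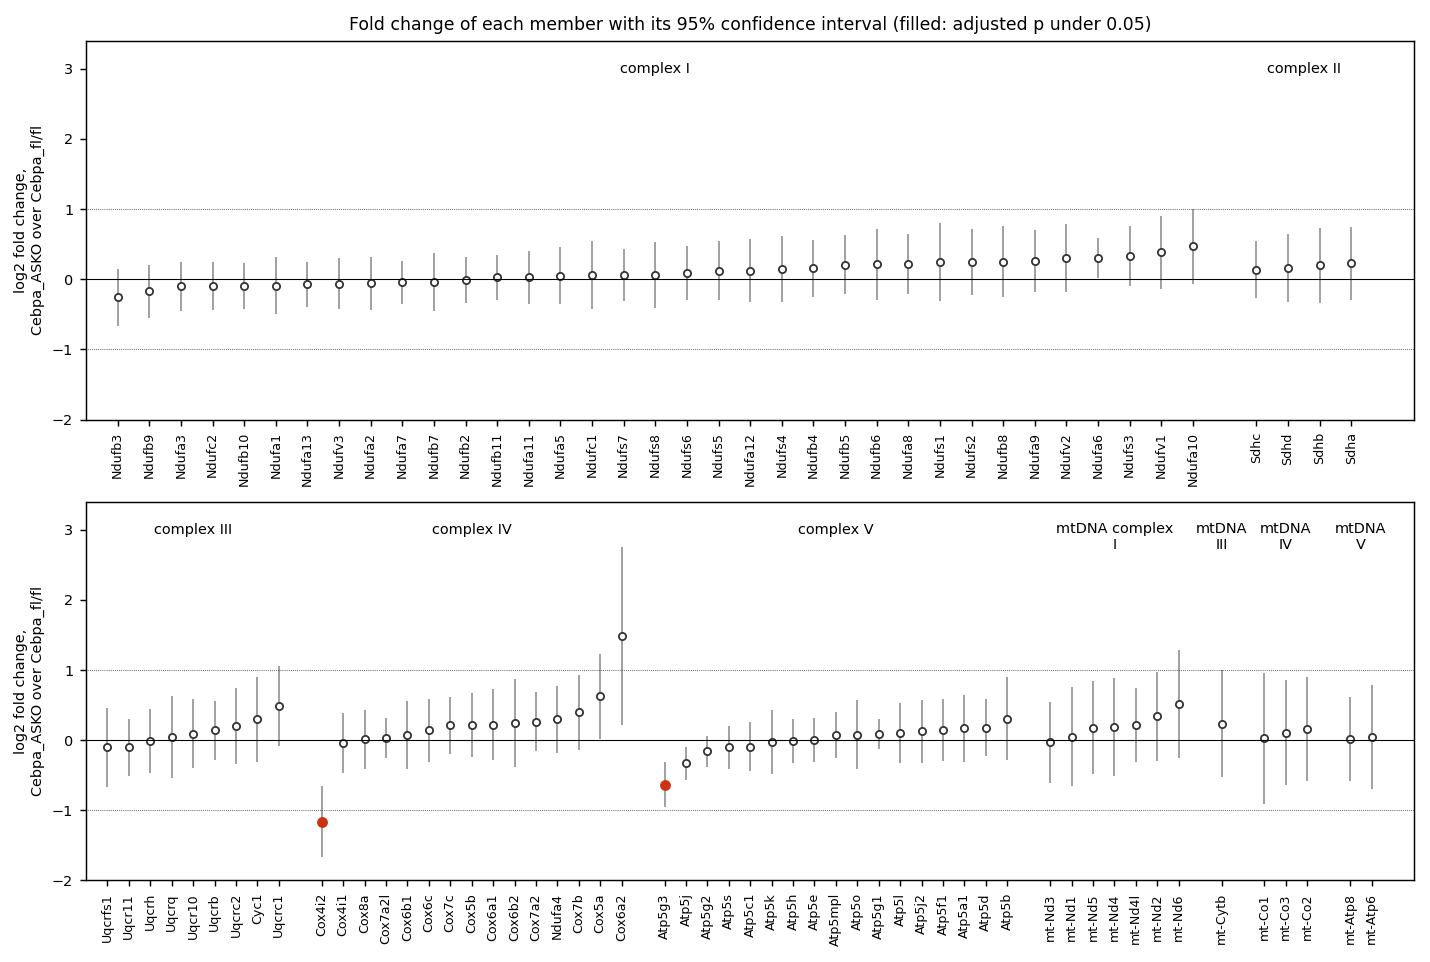
Log2 fold change of each of the 93 members, Cebpa_ASKO over Cebpa_fl/fl, as points with 95% confidence intervals from edgeR (n = 3 libraries a genotype), ordered within each complex, nuclear members by complex and mtDNA members (mtDNA, with their complex) at the right of the lower panel. Dotted lines mark a halving and a doubling. *Atp5g3* and *Cox4i2* are the filled points, and 87 of the 93 intervals lie between the dotted lines.

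Most members shared 1 profile over the libraries, and it crossed the genotypes. Cebpa_fl/fl 2 was the lowest of the 6 libraries in CPM for 76 of 93 members (81.7%), including all 13 mtDNA genes, and for 23.0% of all genes tested. Cebpa_ASKO 1 was the highest for 68 members (73.1%) and for 16.3% of all genes. Relative to each gene's own mean, the median nuclear member stood at 0.17, -0.36 and 0.01 in Cebpa_fl/fl 1, 2 and 3 and at 0.31, -0.01 and -0.13 in Cebpa_ASKO 1, 2 and 3, in log2 CPM. The mtDNA members followed with 0.15, -0.46 and 0.04 and with 0.29, 0.01 and -0.11. Without Cebpa_fl/fl 2 the median log2 fold change was -0.03 for the nuclear and -0.03 for the mtDNA members, and without Cebpa_ASKO 1 it was -0.03 and 0.01. Over the 6 libraries the profile of a gene had a Pearson r above 0.8 with the nuclear median profile for 65 of 80 nuclear and 13 of 13 mtDNA members, a description, since each nuclear gene is part of that median and all share the libraries. Only *Cox6b2* (r = -0.54), *Atp5g2* (-0.35), *Atp5g1* (-0.32) and *Cox4i2* (-0.14) ran below 0, and *Cox6a2* (0.02), *Atp5g3* (0.03) and *Atp5j* (0.05) lay near it.

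**Figure D2:**
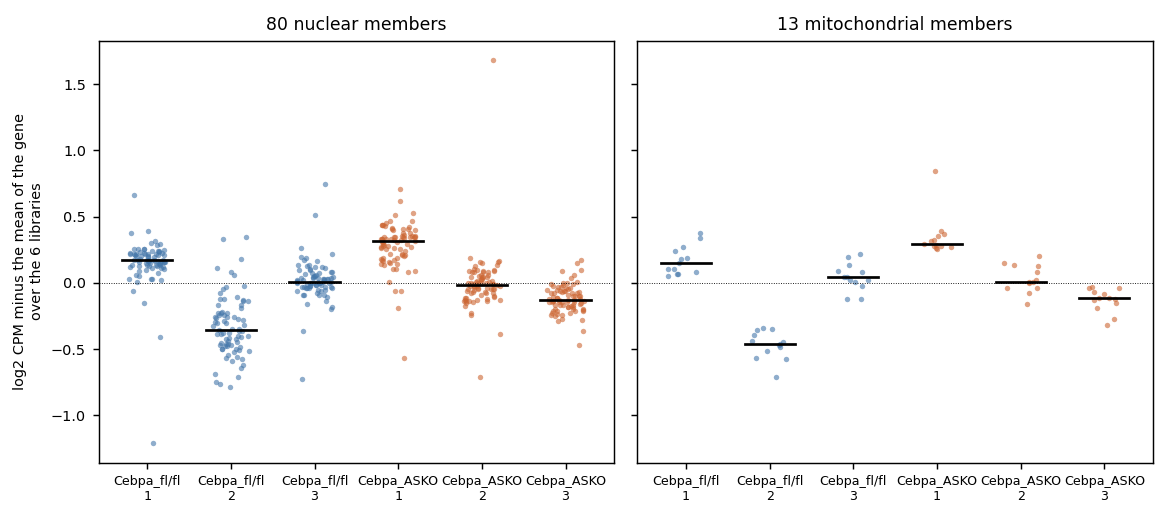
Log2 CPM of each member minus its mean over the 6 libraries, nuclear members on the left and mtDNA members on the right, 1 point per gene, with a bar at the median. The median nuclear member is lowest in Cebpa_fl/fl 2, at -0.36, and highest in Cebpa_ASKO 1, at 0.31.

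Genes of brown and beige adipocytes also varied between libraries. Without *Cox7a1* and *Cox8b*, 13 such genes summed to 954, 95.4 and 288 TPM in Cebpa_fl/fl 1, 2 and 3 and to 1174, 1020 and 727 TPM in Cebpa_ASKO 1, 2 and 3, in the members' order of libraries within each genotype. That order rested in part on *Cidea*, a lipid droplet gene of brown fat. Without it the sums were 659.7, 50.3 and 137 TPM and 297, 301 and 247 TPM, with Cebpa_ASKO 2 highest of its genotype and the genotypes overlapping. Of the whole list of 15, edgeR called 0 higher and 1, the transcription factor gene *Lhx8*, lower, with 5 at an unadjusted p under 0.05 and 2 called by DESeq2, and 8 fitted values lay above and 7 below 0. *Ucp1* was at 559.5, 16.6 and 91.5 TPM in Cebpa_fl/fl and 191, 196 and 162 TPM in Cebpa_ASKO, so Cebpa_fl/fl 1 and 2 spanned the Cebpa_ASKO libraries. The adipocyte marker sum ran the other way within Cebpa_fl/fl, at 45523, 60954 and 54005 TPM. Macrophage genes summed to 1703, 3434 and 1291 TPM in Cebpa_fl/fl 1, 2 and 3 and to 1958, 2189 and 3073 TPM in Cebpa_ASKO 1, 2 and 3. They were highest in Cebpa_fl/fl 2 and Cebpa_ASKO 3, where the median nuclear member was lowest within each genotype. Cebpa_fl/fl 1 and 3 stood in the members' order. The part of fat cell makeup or of other cell types in the members' library profile was not tested.

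The isoform genes left out by the rule varied widely between libraries. *Cox7a1*, a tissue isoform of subunit 7a, was at 237, 23.2 and 80.7 TPM in Cebpa_fl/fl and 581, 442 and 328 TPM in Cebpa_ASKO, without overlap, with a log2 fold change of 1.90 (SE 0.787, adjusted p = 0.247). *Cox8b* was at 1255, 548 and 776 TPM and 1851, 1698 and 1018 TPM, overlapping, with 0.76 (SE 0.399, adjusted p = 0.360). Cebpa_fl/fl 2 was the lowest and Cebpa_ASKO 1 the highest library for both. As a share of *Cox7a1* and its partner *Cox7a2*, *Cox7a1* made up 37.6%, 6.63% and 16.4% of TPM in Cebpa_fl/fl and 52.6%, 49.7% and 43.0% in Cebpa_ASKO. Its share did not overlap between genotypes, and *Cox7a2* itself did not pass the test. The sums of 30 skeletal muscle genes did not overlap either, at 808, 1272 and 954 TPM in Cebpa_fl/fl and 3161, 6909 and 2600 TPM in Cebpa_ASKO. The parts of muscle and of fat cell makeup in the levels of these isoform genes were not tested.

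**Figure D3:**
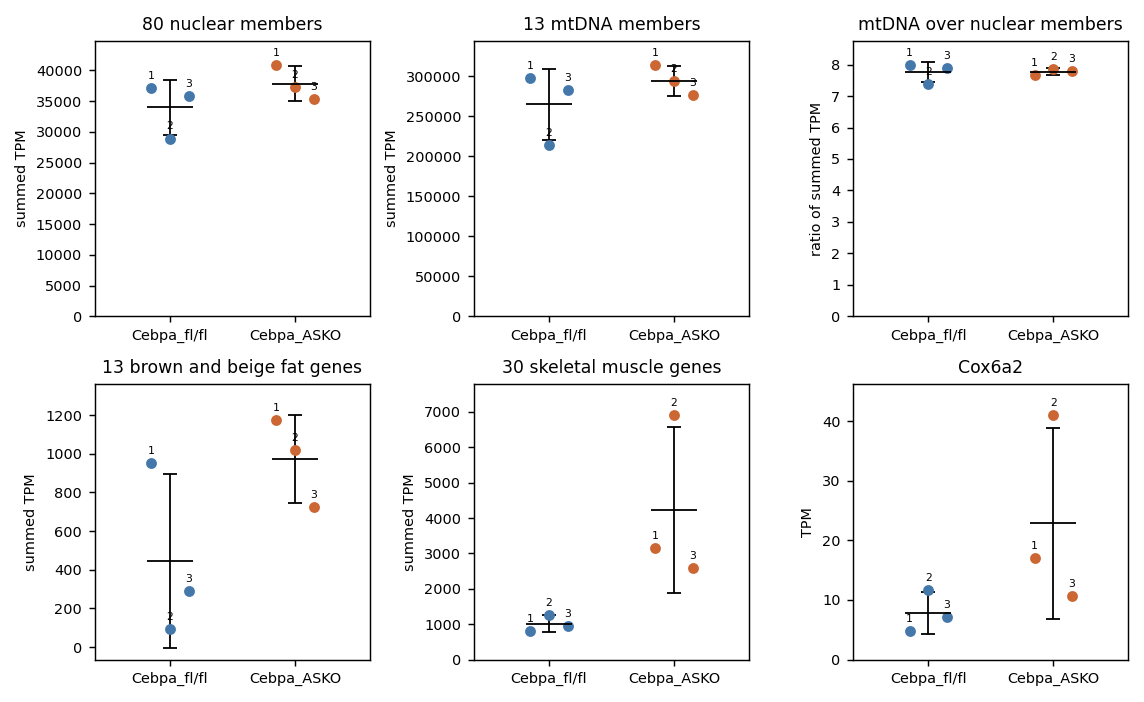
Values of each library, with library numbers, the mean and the SD (n = 3): summed TPM of the 80 nuclear and of the 13 mtDNA members, the ratio of the mtDNA to the nuclear sum, summed TPM of 13 brown and beige fat genes and of 30 skeletal muscle genes, and TPM of *Cox6a2*. The ratio lies between 7.39 and 7.98 in every library, and the muscle sum and *Cox6a2* are highest in Cebpa_ASKO 2.

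Complex I, which oxidises NADH, had 0 of 35 nuclear genes called by edgeR or DESeq2 and 1, *Ndufa6*, at an unadjusted p under 0.05, and its summed level was 10536, 8394 and 10103 TPM in Cebpa_fl/fl and 11323, 10507 and 9967 TPM in Cebpa_ASKO. The median log2 fold change was 0.06, and it ran from -0.06 to 0.21 over the 6 fits that lack 1 library. The 7 core genes, whose products carry the flavin and the iron-sulphur clusters, all had fitted values above 0, with a median of 0.24. The 28 accessory genes had 16 above and 12 below 0, with a median of 0.04. Without Cebpa_fl/fl 2 the core genes had 5 above and 2 below 0, with a median of 0.077, and the accessory genes 8 above and 20 below, with -0.10. Without Cebpa_ASKO 1 these were 5 and 2 (0.095) and 8 and 20 (-0.068). Among the core genes, *Ndufv1*, which binds NADH, was at 210.3, 144 and 196 TPM in Cebpa_fl/fl and 271, 245 and 229 TPM in Cebpa_ASKO, a log2 fold change of 0.38 (SE 0.220, adjusted p = 0.407). Its groups did not overlap in TPM and did in CPM. *Ndufs1*, the large iron-sulphur subunit, had overlapping levels of 129, 87.3 and 126 TPM and 157, 139 and 123 TPM (0.24, SE 0.233). The highest fitted value was that of the accessory gene *Ndufa10*, at 179, 127 and 188 TPM and 255, 224 and 213 TPM, which was 0.47 (SE 0.222, adjusted p = 0.310). *Ndufa6*, another accessory gene, was at 363, 344 and 379 TPM and 475, 481 and 437 TPM, with 0.30 (SE 0.120, adjusted p = 0.228). For both, every Cebpa_ASKO library lay above every Cebpa_fl/fl library, also in CPM, and neither passed the test. At the lower end stood the membrane arm genes *Ndufb3* (-0.26, SE 0.168; 208 ± 24.3 against 181 ± 13.7 TPM) and *Ndufb9* (-0.17, SE 0.161; 508 ± 68.0 against 470.2 ± 15.6 TPM), which overlapped between genotypes.

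Complex II, succinate dehydrogenase, has 4 nuclear genes and also works in the tricarboxylic acid cycle. The flavoprotein gene *Sdha* was at 361, 246 and 356 TPM in Cebpa_fl/fl and 409.8, 375 and 379 TPM in Cebpa_ASKO (0.22, SE 0.217, adjusted p = 0.649). The iron-sulphur subunit gene *Sdhb* was at 351, 233 and 323 TPM and 403, 347 and 338 TPM (0.20, SE 0.224, adjusted p = 0.700). The membrane anchors *Sdhc* and *Sdhd* had fitted values of 0.14 and 0.16. All 4 were lowest in Cebpa_fl/fl 2 and highest in Cebpa_ASKO 1, and 0 were called, reached an unadjusted p under 0.05 in edgeR or were called by DESeq2. Their summed level was 1083 ± 191 TPM in Cebpa_fl/fl and 1282 ± 95.7 TPM in Cebpa_ASKO (SD, n = 3 each), a ratio of 1.18, or of 1.07 without Cebpa_fl/fl 2.

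Complex III, which passes electrons from ubiquinol to cytochrome c, had 0 of 9 nuclear members called by edgeR or DESeq2, 0 at an unadjusted p under 0.05, and a median log2 fold change of 0.09, from -0.09 to 0.25 over the 6 fits that lack 1 library. Of its redox subunits, *Cyc1*, encoding cytochrome c1, was at 318, 193 and 305 TPM in Cebpa_fl/fl and 403, 363 and 339 TPM in Cebpa_ASKO (0.30, SE 0.255, adjusted p = 0.600). The Rieske protein gene *Uqcrfs1* was at 329.5, 214 and 308 TPM and 312, 259.6 and 253 TPM (-0.10, SE 0.238, adjusted p = 0.871). The intervals of *Cyc1* and *Uqcrfs1*, -0.31 to 0.91 and -0.67 to 0.46, overlapped widely, and without Cebpa_fl/fl 1 the value of *Uqcrfs1* turned to 0.067. The core protein gene *Uqcrc1* stood highest, at 264, 161 and 231 TPM and 351, 311 and 305 TPM (0.49, SE 0.238, adjusted p = 0.320). Its groups did not overlap in TPM and did in CPM. Its partner *Uqcrc2* had 0.20 (SE 0.229). The small subunit gene *Uqcr11*, 931 ± 124 against 904 ± 57.7 TPM, had -0.10 (SE 0.172).

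Complex IV, cytochrome c oxidase, reduces oxygen in a core of mtDNA subunits that nuclear subunits surround. Of its 15 nuclear members edgeR called 0 higher and 1, *Cox4i2*, lower, with 3 at an unadjusted p under 0.05, and DESeq2 also called *Cox6a2*, higher. The median log2 fold change was 0.22, the highest of the 5 complexes with all libraries, from 0.06 to 0.30 over the 6 fits that lack 1 library. The summed level was 9607 ± 1349 TPM in Cebpa_fl/fl and 11262 ± 982 TPM in Cebpa_ASKO (SD, n = 3 each), with overlapping libraries and a ratio of 1.17, or of 1.09 without Cebpa_fl/fl 2. *Cox5a*, a matrix-side subunit, was at 515, 329.6 and 473 TPM in Cebpa_fl/fl and 841, 659.8 and 636 TPM in Cebpa_ASKO. All Cebpa_ASKO libraries lay above all Cebpa_fl/fl libraries, the log2 fold change was 0.63 (SE 0.255), and the adjusted p was 0.238. Its level relative to *Cox5b*, the zinc-binding neighbour in the enzyme, was 0.614, 0.580 and 0.617 in Cebpa_fl/fl and 0.888, 0.784 and 0.829 in Cebpa_ASKO, as a ratio of TPM. This ratio varied little among the Cebpa_fl/fl libraries, where both genes varied, and did not overlap between genotypes. Relative to the subunit 4 gene *Cox4i1*, *Cox5a* was at 0.370, 0.293 and 0.356 in Cebpa_fl/fl and 0.598, 0.530 and 0.511 in Cebpa_ASKO. That ratio varied more among the Cebpa_fl/fl libraries and did not overlap either. *Cox5a* alone already did not overlap, so neither ratio is independent of that. *Cox7b* had 0.40 (SE 0.224, adjusted p = 0.399; 367 ± 71.0 against 496 ± 48.2 TPM), *Ndufa4* 0.30 (SE 0.201), *Cox7a2* 0.26 (SE 0.176) and *Cox6a1* 0.22 (SE 0.212). *Cox7a2l*, which joins complexes III and IV and is known to be shortened in C57BL6 mice, had 0.03 (SE 0.121).

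Subunit 4 comes in a pair of isoforms. *Cox4i2*, on mouse chromosome 2 (start 152754173, end 152765037, GRCm38), encodes a form of subunit 4 best known from the lung, and was at 7.39, 6.58 and 8.4 TPM in Cebpa_fl/fl and 3.18, 3.30 and 3.98 TPM in Cebpa_ASKO. Each Cebpa_ASKO value was below each Cebpa_fl/fl value, at a log2 fold change of -1.16 (SE 0.213, 95% confidence interval -1.67 to -0.66, adjusted p = 0.0299). Its common counterpart *Cox4i1* was at 1394, 1126 and 1326 TPM and 1408, 1245 and 1246 TPM (-0.04, SE 0.179), so *Cox4i2* gave 0.528% to 0.629% of subunit 4 TPM in Cebpa_fl/fl and 0.225% to 0.318% in Cebpa_ASKO. *Cox4i2* was called with all 6 libraries and without Cebpa_fl/fl 2, and not when any of the others was left out (adjusted p from 0.0626 to 0.127), with the fitted value between -1.29 and -1.08 throughout. The call was also lost with limma without a filter (-0.91, adjusted p = 0.0561), with the replicate number as a block (-1.16, adjusted p = 0.0898) and with the muscle share as a covariate (-0.71, SE 0.536, adjusted p = 0.998). Muscle gene sums did not overlap between genotypes, so the covariate fit cannot separate muscle share from genotype. *Cox4i2* is known as a pericyte and smooth muscle gene in many tissues. Of 12 such markers edgeR called 1, *Mcam*, lower (103 ± 21.1 against 27.7 ± 4.56 TPM), with 8 at an unadjusted p under 0.05 and 4 called by DESeq2. Of the 12, 9 lay above 0, with a median of 0.36, and their sums overlapped (428 to 595 against 506 to 664 TPM). *Ndufa4l2*, a relative of *Ndufa4* outside the name rule, was at 8.07, 10.1 and 9.44 TPM and 6.12, 5.06 and 6.34 TPM (-0.62, adjusted p = 0.129).

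*Cox6a2*, the heart and skeletal muscle form of subunit 6a, was at 4.76, 11.7 and 7.12 TPM in Cebpa_fl/fl and 17.0, 41.0 and 10.6 TPM in Cebpa_ASKO, overlapping, with a log2 fold change of 1.49 (SE 0.531, adjusted p = 0.185 in edgeR and 0.0352 in DESeq2). Without Cebpa_ASKO 2 it was 0.81, and with the skeletal muscle share of each library as a covariate in the fit it turned to -1.54 (SE 0.505, adjusted p = 0.689). The muscle gene sums did not overlap between genotypes, so the covariate fit cannot separate muscle share from genotype. The 30 skeletal muscle genes summed to 808, 1272 and 954 TPM and to 3161, 6909 and 2600 TPM, so the libraries stood in the same order as for *Cox6a2* within each genotype, with Cebpa_ASKO 2 highest in both. All 30 had fitted values above 0, with a median of 2.04. Of 10 slow muscle genes edgeR called 1, *Myl3*, higher, and DESeq2 called 1. *Cox6a2* never exceeded 3.38% of the summed TPM of *Cox6a1* and *Cox6a2*.

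ATP synthase had 0 of 17 nuclear members called higher and 1, *Atp5g3*, lower (DESeq2 also called *Atp5j*, lower), with 2 at an unadjusted p under 0.05. The median log2 fold change was 0.07, from -0.09 to 0.12 over the 6 fits that lack 1 library. No head gene passed the test. *Atp5b* was at 1522, 1072 and 1467 TPM in Cebpa_fl/fl and 1913, 1718 and 1508 TPM in Cebpa_ASKO (0.30, SE 0.248), and *Atp5a1*, encoding the α subunit, had 0.17 (SE 0.202). *Atp5d* of the central stalk had 0.18 (SE 0.171), and *Atp5c1*, which encodes the γ shaft, -0.09 (SE 0.147). *Atp5j*, which encodes coupling factor 6 of the outer stalk, was at 372, 405 and 427 TPM and 312, 323 and 330.3 TPM. Its groups did not overlap, the log2 fold change was -0.33 (SE 0.0967), and the adjusted p was 0.118 in edgeR and 0.0202 in DESeq2. By transcript, the retained-intron form Atp5j-208 was at 104 ± 13.6 against 60.0 ± 2.06 TPM and the main coding form Atp5j-201 at 212 ± 18.4 against 186 ± 1.40 TPM (SD, n = 3 each, no test per transcript). The other outer stalk genes *Atp5o*, *Atp5f1* and *Atp5h* lay at 0.08, 0.14 and -0.01. Among genes next to the list, *Atpif1*, the inhibitor of ATP synthase, was at 165, 234 and 173 TPM and 236, 248 and 255 TPM without overlap (0.31, SE 0.119, adjusted p = 0.208).

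The ring of ATP synthase is built from copies of 1 small protein, subunit c, which 3 nuclear genes encode with different import sequences and the same mature chain. *Atp5g3* was the major source, at 643, 623 and 787 TPM in Cebpa_fl/fl and 453, 455 and 469 TPM in Cebpa_ASKO. Every Cebpa_ASKO library was below every Cebpa_fl/fl library, and the Cebpa_ASKO values lay close together. The log2 fold change was -0.63 (SE 0.133, 95% confidence interval -0.95 to -0.32, adjusted p = 0.0454). *Atp5g1* was at 107, 128 and 130.4 TPM and 122, 136 and 156 TPM, overlapping (0.09, SE 0.0900, interval -0.13 to 0.30). *Atp5g2* was at 63.0, 77.4 and 65.3 TPM and 58.4, 71.4 and 62.6 TPM, overlapping (-0.16, SE 0.0931, interval -0.38 to 0.06). The interval of *Atp5g3* did not reach that of *Atp5g1* and overlapped that of *Atp5g2*, and the differences between the genes were not tested. Both coding transcripts of *Atp5g3* were lower, Atp5g3-201 at 509 ± 66.8 against 347 ± 1.62 TPM and Atp5g3-202 at 164 ± 26.9 against 102 ± 7.73 TPM. Summed subunit c TPM was 813, 829 and 983 in Cebpa_fl/fl and 634, 663 and 688 in Cebpa_ASKO, without overlap, and *Atp5g3* gave 75.2% to 80.1% of it in Cebpa_fl/fl and 68.3% to 71.6% in Cebpa_ASKO. Relative to *Atp5b*, subunit c stood at 0.534, 0.773 and 0.670 against 0.331, 0.386 and 0.456, as a ratio of TPM. *Atp5b* had the highest fitted value of the nuclear complex V members (0.30, not called), so this ratio fell further than subunit c itself. Cebpa_ASKO over Cebpa_fl/fl, the means stood at 0.593 for the ratio and 0.756 for summed subunit c TPM. The call of *Atp5g3* held without Cebpa_fl/fl 2 (adjusted p = 0.0187) and was lost without any other library (0.102 to 0.166), with the fitted value between -0.74 and -0.53. It was also lost with limma on log2(TPM + 1) (-0.57, adjusted p = 0.0529, or 0.114 without a filter), with the replicate number as a block (-0.63, adjusted p = 0.122) and with the muscle share as a covariate (-0.44, SE 0.365, adjusted p = 0.998). Here too the covariate fit cannot separate muscle share from genotype.

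**Figure D4:**
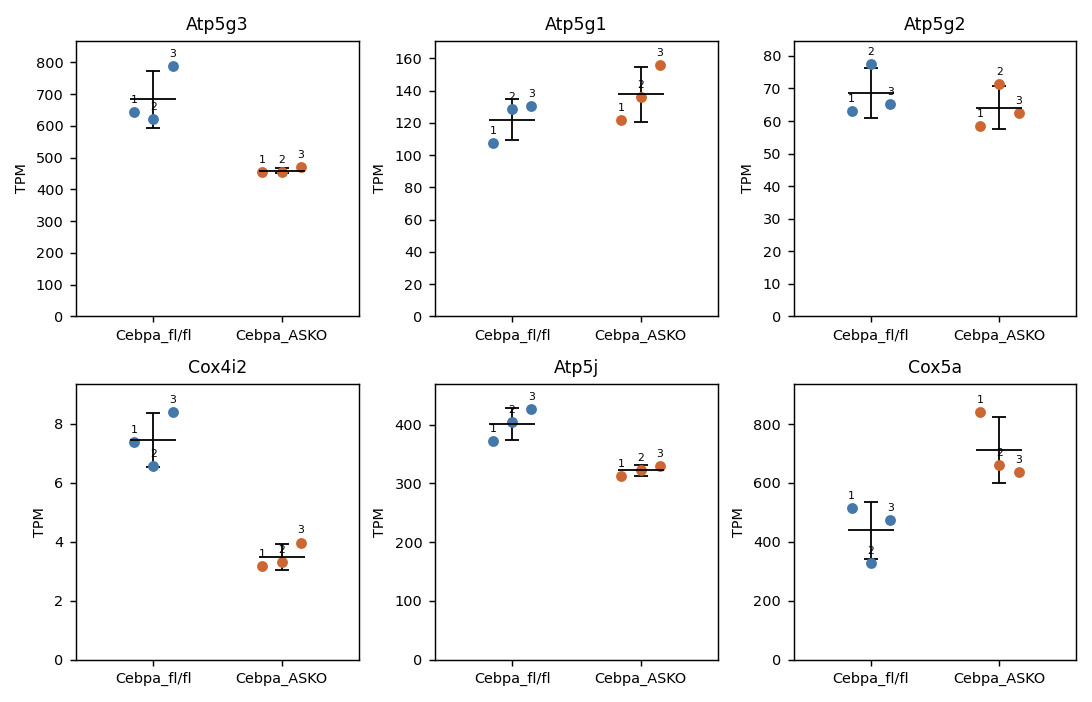
TPM of 6 members in each library, with library numbers, the mean and the SD (n = 3): the subunit c genes *Atp5g3*, *Atp5g1* and *Atp5g2*, the isoform gene *Cox4i2*, the outer stalk gene *Atp5j* and the complex IV gene *Cox5a*. Cebpa_ASKO lies below Cebpa_fl/fl without overlap for *Atp5g3*, *Cox4i2* and *Atp5j*, above it for *Cox5a*, and overlaps for *Atp5g1* and *Atp5g2*.

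The promoter windows of the 3 subunit c genes are shown because these genes encode 1 mature protein and only *Atp5g3* passed the test. Each runs 5′ to 3′ from 250 bases before to 50 after the annotated start (RefSeq, GRCm38.p6), and all lie on the minus strand: *Atp5g1* at chr11:96075582-96075881, *Atp5g2* at chr15:102670998-102671297 and *Atp5g3* at chr2:73911277-73911576. Capitals mark matches, on either strand, to the letters GCGCANGCGC of the NRF1 motif, in *Atp5g2* from position -42 and in *Atp5g3* from position 13, and to AAGGTCA of the ERR motif, in *Atp5g3* from position -52.
Atp5g1: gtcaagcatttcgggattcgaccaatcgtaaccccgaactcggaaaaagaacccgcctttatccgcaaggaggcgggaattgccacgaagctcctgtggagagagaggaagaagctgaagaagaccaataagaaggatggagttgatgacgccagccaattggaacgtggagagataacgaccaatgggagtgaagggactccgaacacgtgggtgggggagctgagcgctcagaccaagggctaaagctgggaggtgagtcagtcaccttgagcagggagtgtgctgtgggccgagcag
Atp5g2: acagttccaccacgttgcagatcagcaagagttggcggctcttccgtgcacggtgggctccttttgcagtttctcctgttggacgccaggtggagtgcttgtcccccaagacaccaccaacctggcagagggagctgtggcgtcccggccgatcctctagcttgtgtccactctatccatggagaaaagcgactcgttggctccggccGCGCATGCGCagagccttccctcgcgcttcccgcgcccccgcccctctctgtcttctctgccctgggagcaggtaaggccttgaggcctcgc
Atp5g3: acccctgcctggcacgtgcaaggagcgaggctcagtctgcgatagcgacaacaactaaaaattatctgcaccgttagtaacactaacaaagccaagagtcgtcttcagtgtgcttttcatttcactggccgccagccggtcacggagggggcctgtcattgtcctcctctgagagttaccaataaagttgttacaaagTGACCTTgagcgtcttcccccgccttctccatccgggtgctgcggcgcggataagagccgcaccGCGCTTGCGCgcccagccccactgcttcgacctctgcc
The *Atp5g1* window held none of the motifs searched, and GC content was 55.3%, 63.0% and 57.0% for *Atp5g1*, *Atp5g2* and *Atp5g3*. A match to letters describes the window and is not evidence of a bound factor.

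Windows were at hand for 65 of the 80 nuclear members. The NRF1 letters were in those of 17 members, or 26.2%, against 5.19% of all 27025 genes with a window, and in 6 of 15 complex V members, among them *Atp5g2*, *Atp5g3*, *Atp5o* and *Atp5k*. The letters CCGGAAG of the ETS motif that GABPA binds were in 16 members, or 24.6%, against 9.93%, with *Atp5j* and *Cox8a* among them. The ERR letters were in 8 members, or 12.3%, against 5.38%. The C/EBP letters TTGCNNAA were in 8 members, or 12.3%, against 12.2% of all genes, among them *Ndufa4*, *Cox6a1*, *Sdha* and *Uqcrfs1*, and not in the windows of *Atp5g3* or *Atp5j*. None of the motifs contains another. *Cox4i2* and *Cox6a2* were not among the genes with a window.

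The mtDNA genes supply the proton-pumping core of complexes I, III and IV and the channel of ATP synthase, and are read as long transcripts that are cut apart. By edgeR and DESeq2 0 of the 13 were called, 0 had an unadjusted p under 0.05, 12 had fitted values above 0, and the median standard error was 0.294, so intervals were wide. The complex IV genes *mt-Co1*, *mt-Co2* and *mt-Co3* were close in level. *mt-Co1* was at 35122, 26231 and 39341 TPM in Cebpa_fl/fl and 37917, 35466 and 33416 TPM in Cebpa_ASKO (0.02, SE 0.392), and *mt-Co2* and *mt-Co3* had 0.17 and 0.11. *mt-Cytb* of complex III was at 20128, 14709 and 20682 TPM and 24839.6, 21768 and 21576 TPM, without overlap in TPM and with overlap in CPM (0.24, SE 0.321, adjusted p = 0.767). In complex I, *mt-Nd2* had 0.34 (SE 0.266), *mt-Nd4l* 0.22, *mt-Nd4* 0.19, *mt-Nd5* 0.18, *mt-Nd1* 0.05 and *mt-Nd3* -0.03. *mt-Nd6*, the lowest of the 13 and the only one on the other strand, was at 176, 112 and 159.8 TPM and 294, 210.1 and 158 TPM (0.52, SE 0.321, adjusted p = 0.443). Strand use is not given in the sources used here, so reads of the opposite strand over *mt-Nd6* cannot be told apart from it. Its bases (13552 to 14070) overlap those of *mt-Nd5* (11742 to 13565) only at the edge. *mt-Atp6* (0.04) and *mt-Atp8* (0.01, turning to -0.051 with an offset for length) share bases, as do *mt-Nd4* and *mt-Nd4l*, and their split is uncertain. All 13 were lowest in Cebpa_fl/fl 2.

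Few genes that build or serve the chain passed the test. Of 17 complex I assembly factors, 4 of complex II, 6 of complex III, 24 of complex IV and 5 of ATP synthase, edgeR called 0 in either direction, with median log2 fold changes of 0.07, -0.11, 0.13, 0.02 and 0.04. An unadjusted p under 0.05 was found for 2 factors of complex I, both called by DESeq2, for 1 of complex IV, and for 0 of the others. At 0 counts in every library stood *Pet117*. Of 8 carriers and entry points, edgeR called 0 (3 at an unadjusted p under 0.05, 1 with DESeq2), and *Cycs*, which encodes cytochrome c, was at 74.6, 44.5 and 66.9 TPM in Cebpa_fl/fl and 95.2, 79.0 and 69.4 TPM in Cebpa_ASKO (0.31, adjusted p = 0.611). The 13 genes of coenzyme Q synthesis had a median of 0.16 and 0 calls (1 at an unadjusted p under 0.05, 1 with DESeq2). The 13 of the tricarboxylic acid cycle had 12 values above 0 and the highest median, 0.36, again with 0 called by edgeR (3 at an unadjusted p under 0.05, 1 with DESeq2). Their summed level was 3071, 1796 and 2740 TPM in Cebpa_fl/fl and 3986, 3714 and 3280 TPM in Cebpa_ASKO, in the library order of the subunits.

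Of 27 genes for copying mtDNA and handling its RNA, 1 was called. *Hsd17b10*, a subunit of mitochondrial RNase P and a dehydrogenase, was at 142, 172 and 167 TPM in Cebpa_fl/fl and 93.4, 97.7 and 100.4 TPM in Cebpa_ASKO, lower without overlap (-0.78, SE 0.0829, adjusted p = 0.00387). *Tfam*, the packaging and transcription factor of mtDNA, had -0.08. Of 78 mitochondrial ribosome genes edgeR called 0 higher and 1 lower, with 9 at an unadjusted p under 0.05 and a median of -0.0044. Of 20 nuclear regulators of respiratory genes edgeR called 0, with 5 at an unadjusted p under 0.05 and 3 called by DESeq2. The coactivator gene *Ppargc1a* was at 2.25, 1.45 and 2.19 TPM and 1.49, 1.66 and 1.91 TPM (-0.25), *Nrf1* had -0.04, *Esrra* 0.03 and *Gabpa* 0.30 (adjusted p = 0.0897). *Gabpa* stood at 13.6, 14.1 and 14.98 TPM and 16.5, 20.2 and 19.8 TPM, higher without overlap in TPM. The 18 outer membrane and mass markers had a median of 0.03, 0 calls by edgeR (1 at an unadjusted p under 0.05, 1 with DESeq2) and summed levels of 2417 to 2754 TPM in Cebpa_fl/fl and 2636 to 2683 TPM in Cebpa_ASKO. These sums varied less between libraries than the subunit sums did.

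**Figure D5:**
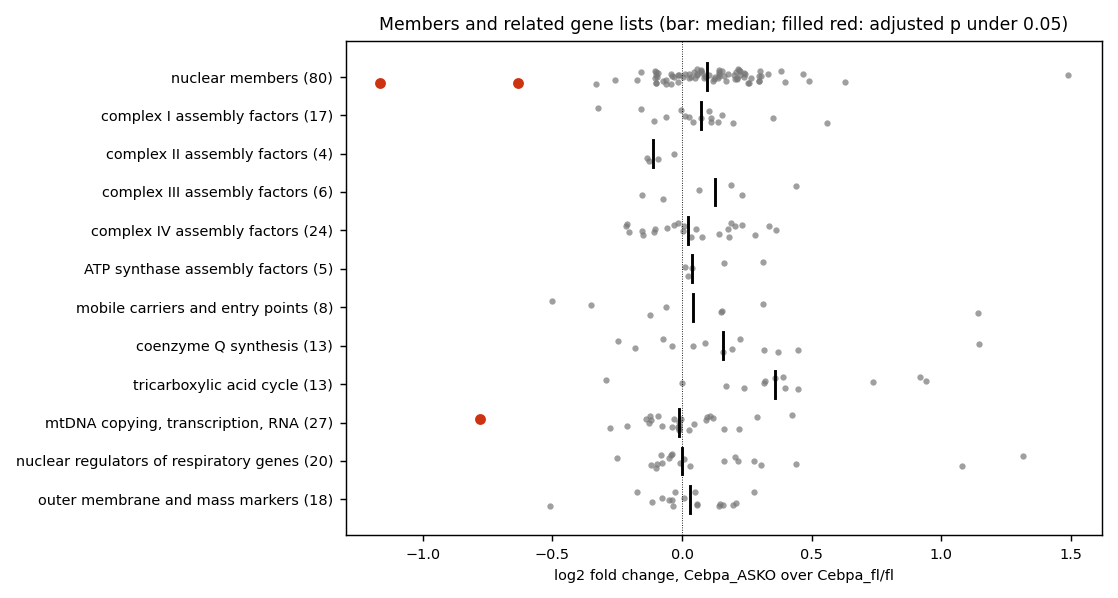
Log2 fold change, Cebpa_ASKO over Cebpa_fl/fl, of the 80 nuclear members and of genes in 11 related lists, 1 point per gene tested (number in brackets), with a bar at each median. Filled points passed an adjusted p of 0.05: *Atp5g3* and *Cox4i2* among the members and *Hsd17b10* among the genes for handling mtDNA, all lower, and the tricarboxylic acid cycle has the highest median, 0.36.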

How the data were processed

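Poly-A enriched RNA of 6 whole iWAT depots, 3 per genotype, was sequenced as 1 library per mouse. For each library the authors deposited an estimated count, not normalized, and a TPM (a share per transcript length) for every transcript, and a summed TPM for every gene symbol. The deposited files also hold each transcript's effective length in bases, as kallisto gives it, which is no read signal and served for the length offset. The submitters' processing notes name kallisto 0.44.0 and the builds GRCm38.p6 and GRCh38.p12. Transcripts were matched by identifier to GENCODE M21 annotation (98.6% matched), and estimated counts were summed per symbol and rounded. For *Atp5a1*, *Ndufs3* and *Uqcrc1* the matched transcripts hold 50.0% of the deposited TPM, so the counts cover that part and the TPM is complete.

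Genotype and replicate came from the labels. edgeR 4.0.16 (R 4.3.3) was run with TMM scaling, filterByExpr and the quasi-likelihood test over 16069 genes, with Benjamini-Hochberg adjustment over all of them, and all 93 members were tested, at no fewer than 49 counts in any library. Calls are at an adjusted p under 0.05. Levels are deposited TPM, which shift together when abundant transcripts change, and SDs and tests measure the spread between 3 mice a genotype. An exact permutation test on 3 against 3 cannot go below p = 0.1 and was not used. Libraries of 1 genotype differed beyond counting noise, by 25.9 to 224 in chi-square for each degree of freedom. Intervals are 95% confidence intervals of the fit.

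The alternatives were DESeq2 1.42.0, its size factors in edgeR, total count scaling, limma 3.58.1 on log2(TPM + 1) and log2(TPM + 0.1), looser and stricter count filters, scaling without the mtDNA genes, a length offset, the replicate number as a block, a muscle covariate and leaving out each library. Counts completed to the deposited TPM were added after seeing the data. Promoter windows came from RefSeq for GRCm38.p6, and 65 of 80 nuclear members matched by symbol or by a RefSeq synonym. Named genes are called members, the largest changes on either side in each complex among members with a mean of at least 10 CPM, the mtDNA genes, core and isoform members, called genes of the other lists, and regulators; the genes *Ndufa6*, *Atp5g1* and *Atp5g2* and other members given by value alone were named after their values were seen. Atp5if1 of that rule stands in the table as *Atpif1*. The members, lists and tests were chosen with earlier results of these data known.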

Additional observations from a re-analysis of the deposited data

How the results depend on the processing

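The count of called members moved most. It was 2, both lower, in edgeR, 4 with DESeq2 (3 lower and 1 higher), 1 with limma at a pseudocount of either 1 or 0.1 TPM, 0 with limma without a filter and 0 with skeletal muscle share as a covariate. Leaving out 1 library gave 0 to 2 called members, all of them lower. The covariate also moved the median log2 fold change to 0.35 for nuclear members, 0.55 for complex II and 0.44 for complex III. Because the muscle gene sums did not overlap between genotypes, this fit cannot separate muscle share from genotype. Its shifts and sign turns are therefore no measure of a muscle effect. Deviations of same-numbered libraries of the 2 genotypes had correlations of 0.10, -0.01 and -0.26, and not every library correlated best with its own number. With 3 libraries a genotype these values cannot show whether the numbers pair the mice. With the replicate number as a block 0 members were called. Scaling by total counts gave medians of 0.14 (nuclear) and 0.21 (mtDNA) beside 0.07 over all genes, and limma on log2(TPM + 1) gave 0.16 and 0.24 beside 0.08. No reversal concerned a gene called by edgeR. Under the covariate the sign turned for *Cox6a2* (-1.54), *Cox4i1* (0.29), *Uqcrfs1* (0.37), *Cox7a2l* (-0.16), *Uqcr11* (0.10), *Ndufb3* (0.068), *Ndufb9* (0.051) and *mt-Nd3* (0.072). Under limma *Cox4i1* was 0.023 and *mt-Nd3* 0.040 with either pseudocount and without a filter, and under total counts 0.0028 and 0.015. *mt-Atp8* was -0.0033 with DESeq2, -0.0017 with its size factors, -0.0047 with at least 10 counts in every library and -0.051 with the length offset. With 1 library left out, values ran from -0.013 to 0.30 for *Atp5a1*, -0.18 to 0.070 for *Cox4i1*, -0.046 to 0.094 for *Cox7a2l*, -0.0049 to 0.37 for *Uqcrc2*, -0.32 to 0.067 for *Uqcrfs1*, -0.11 to 0.18 for *mt-Atp6*, -0.17 to 0.23 for *mt-Atp8*, -0.17 to 0.14 for *mt-Co1*, -0.014 to 0.30 for *mt-Co2*, -0.044 to 0.23 for *mt-Co3*, -0.15 to 0.21 for *mt-Nd1*, -0.20 to 0.15 for *mt-Nd3* and -0.031 to 0.33 for *mt-Nd5*. The cause was not tested. The lowest count in any library was 49 for *Cox4i2*, 83 for *Cox6b2* and 96 for *Cox6a2*, and counting error was not separated from the spread between mice.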
